A study of Mus musculus with 2 samples.

Results

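The core of the Hippo pathway was read from 10 of the 32285 genes counted: the coactivators Yap1 and Wwtr1 (the gene of TAZ), their DNA-binding partners Tead1, Tead2, Tead3 and Tead4, the kinases Lats1, Lats2 and Stk3 (MST2), and the scaffold Sav1. They were chosen by gene symbol and not by a rule on their values, although earlier results of these data were known. All 10 were found. The counts came from single cells of pancreatic tumours of KPPC mice, a model of pancreatic ductal cancer. The labels name the model by this abbreviation and spell out neither the alleles nor the Cre driver. One group received vehicle and the other takinib, an inhibitor of the kinase TAK1, at 50 mg/kg. All animals were 6 weeks old at treatment, which lasted 14 days. There was 1 library per group, and how many mice went into each is not given in the labels. Differences between treatments could not be checked against replicates, and none carries a p-value. Square brackets hold 95% intervals that cover counting error only, exact Poisson for levels and exact binomial for shares and ratios.

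In the Hippo pathway, MST kinases (Stk3 and Stk4) bound to Sav1 activate the LATS kinases. LATS kinases phosphorylate YAP and TAZ, which are then held in the cytoplasm or degraded. When the kinases are inactive, YAP and TAZ enter the nucleus, bind TEAD factors and switch on genes such as Ccn1 and Ccn2. In pancreatic cancer YAP is known for its part in tumour growth, and in fibroblasts and vessels YAP and TAZ respond to stiffness and flow. Much of this control acts on protein, so that RNA counts show how much transcript a cell held and not how active the pathway was.

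TEAD factors bind the letters GGAATG, or CATTCC on the other strand. The 250 bases before a start site were searched on both strands in RefSeq's promoter table (build GRCm38.p6), which held 7 of the 10 genes. Of these 7, 4 (Yap1, Wwtr1, Tead3 and Sav1) had the letters in at least 1 start site. By start site, 6 of 11 held them, of which the 2 of Wwtr1 overlap and share 1 match, and 12.6% of the 32817 promoters in the table did. The AP-1 letters TGACTCA or TGAGTCA were found in none of the 7, and in 4.46% of all promoters. These are matches of letters and do not show that a factor was bound. The promoters of Yap1, Wwtr1 and Sav1 are shown because all 3 hold the match while their levels, below, differed between cell types, with the match in capitals, 5′ to 3′ on the gene's own strand, the minus strand in each case. The Yap1 stretch lies at chr9:8004597-8004846, the Wwtr1 stretch at chr3:57575911-57576160 and the Sav1 stretch at chr12:69987003-69987252.
Yap1: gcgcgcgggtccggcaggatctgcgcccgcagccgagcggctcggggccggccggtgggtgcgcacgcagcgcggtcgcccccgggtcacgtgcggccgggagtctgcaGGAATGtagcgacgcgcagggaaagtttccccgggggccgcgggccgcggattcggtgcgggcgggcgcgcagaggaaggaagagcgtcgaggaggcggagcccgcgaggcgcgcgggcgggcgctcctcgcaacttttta
Wwtr1: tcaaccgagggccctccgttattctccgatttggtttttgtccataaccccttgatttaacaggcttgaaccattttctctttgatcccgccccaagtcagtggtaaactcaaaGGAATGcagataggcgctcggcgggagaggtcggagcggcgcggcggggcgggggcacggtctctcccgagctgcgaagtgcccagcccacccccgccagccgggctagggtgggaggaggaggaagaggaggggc
Sav1: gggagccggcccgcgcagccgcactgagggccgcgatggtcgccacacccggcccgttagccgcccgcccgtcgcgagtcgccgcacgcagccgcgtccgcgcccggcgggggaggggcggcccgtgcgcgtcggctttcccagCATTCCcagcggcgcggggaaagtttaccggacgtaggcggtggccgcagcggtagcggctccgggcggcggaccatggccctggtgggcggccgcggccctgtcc
The match began 141 bases before the start in Yap1, 136 in Wwtr1 and 106 in Sav1. The gene bodies follow at once on the same strand: in the GENCODE M21 annotation of the same genome build, Yap1 (ENSMUSG00000053110) spans positions 7931999 to 8004596 of chromosome 9, Wwtr1 (ENSMUSG00000027803) spans 57455649 to 57575910 of chromosome 3, and Sav1 (ENSMUSG00000021067) spans 69965012 to 69987002 of chromosome 12.

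After filtering, 9558 vehicle cells and 25183 takinib cells remained, with 42000538 and 119726977 UMIs (unique molecular identifiers, 1 per captured transcript). The cells were clustered together and named from marker genes. All 10 epithelial markers, all 10 fibroblast markers and all 9 endothelial markers stood higher in the class of that name than in the other cells of the same library, in both libraries. A further 3 clusters of cells from outside the blood carried no clear name and are called by their leading genes: Ppy/Ghrl, Tm4sf1/Prl2c2 and Dcn/Serpinb2. The libraries differed in more than the treatment. Median mitochondrial share was 8.7% in vehicle and 1.79% in takinib. S100a8 plus S100a9, RNA of neutrophils, made up 79.5 CPM of the epithelial-like class in vehicle and 9789 CPM in takinib. In vehicle 3087 cells held Y-linked UMIs without Xist and 1075 held Xist without Y-linked UMIs, whereas takinib had 14324 cells with Xist and 0 cells with a Y-linked UMI, so the sex of the animals cannot be told apart from the treatment over all cells. Every CPM value here and below is the UMIs of a gene scaled to the total UMIs of the class it is given for.

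The coactivators and the TEAD genes stood at least 17.7 times as high in cells from outside the blood as in blood-derived cells in both libraries, and the kinases and Sav1 at most 3.06 times. In vehicle, Yap1 stood at 56.3 CPM [53, 59.7] in the pooled non-blood classes (3989 cells) and at 2.42 CPM [1.81, 3.17] in the pooled blood-derived classes (5507 cells), a ratio of 23.2 [17.6, 31.2]. For Wwtr1 the levels were 94.7 and 2.42 CPM, a ratio of 39.1 [29.8, 52.4]. The non-blood classes were 41.7% of the vehicle cells and held 95.3% of the Yap1 UMIs and 97.2% of the Wwtr1 UMIs.

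The 4 TEAD genes followed the same pattern. In vehicle the ratio of non-blood to blood-derived level was 26 for Tead1, 27.7 for Tead2, 17.9 for Tead3 and 21.3 for Tead4, and the non-blood classes held between 94.2% (Tead3) and 96.2% (Tead2) of the UMIs of each. In takinib, where non-blood cells were 9.28% of the total, the ratios of the 6 genes lay between 17.7 [15.4, 20.3] (Wwtr1) and 48.7 [35.6, 68.2] (Tead2). The low level in blood-derived cells lay below that of free RNA: vehicle barcodes of at most 100 UMIs, taken as empty droplets, gave 19.9 CPM for Yap1, 32.2 for Wwtr1 and 49.1 for Tead1. For these genes and for Tead2 (19.9 CPM in the same barcodes) it was therefore read as background and not as expression. For Tead3 and Tead4 the empty droplets held 1 UMI each, too few to set such a level.

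The kinases were spread more evenly, but the blood-derived vehicle levels of Lats1 (20.3 CPM), Lats2 (15.9) and Stk3 (13.7) also lay at or below those of the empty droplets, which were 39.9 CPM [26, 58.4], 33.7 [21.1, 51.1] and 13.8 [6.31, 26.2]. By level alone these too cannot be told apart from free RNA. Sav1 had 42.9 CPM [28.5, 62] in the empty droplets, an interval that holds its blood-derived level. The proportions differed: the empty droplets held 13 Yap1, 26 Lats1, 22 Lats2 and 9 Stk3 UMIs, and the blood-derived classes 53, 445, 348 and 299. Lats1 had 47.9 CPM in non-blood and 20.3 CPM in blood-derived vehicle cells, a ratio of 2.36 [2.1, 2.65], and the ratio in takinib was 1.75 [1.63, 1.89]. Stk3 had ratios of 1.98 [1.71, 2.29] and 1.6 [1.44, 1.78]. Sav1, the adaptor that joins MST to LATS kinases, was as high in blood-derived cells (55.7 CPM) as in the others (53.8 CPM) in vehicle, a ratio of 0.965 [0.888, 1.05], and stood slightly lower outside the blood in takinib, at 0.825 [0.774, 0.879]. Lats2, the second LATS kinase and itself a YAP target, lay on opposite sides in the libraries. It was 3.06 times [2.7, 3.47] as high in non-blood as in blood-derived cells in vehicle (48.6 and 15.9 CPM) and 0.877 times [0.805, 0.953] as high in takinib (26.9 and 30.6 CPM). The mix of classes inside each pool differed between the libraries, so the values within single classes, below, bear on treatment more directly.

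**Figure D1:**
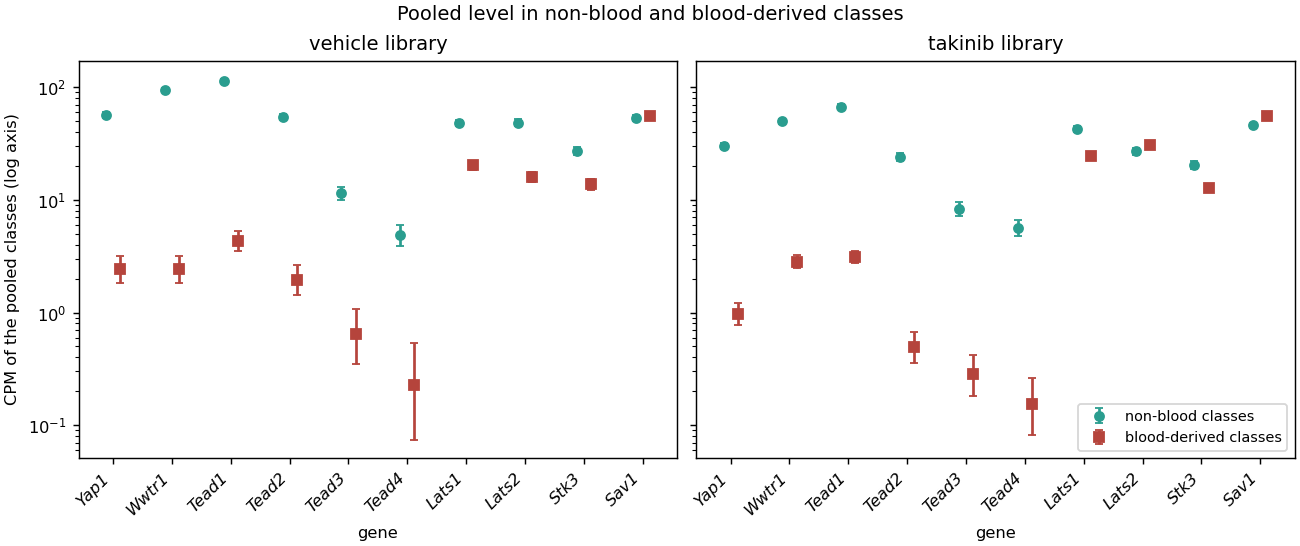
Level of each gene in the pooled non-blood classes (circles) and blood-derived classes (squares) of the vehicle library (left) and the takinib library (right), in CPM on a log axis with 95% Poisson intervals. Yap1, Wwtr1 and the 4 TEAD genes are separated by ratios of 17.7 to 48.7, Lats1 and Stk3 by less, and Sav1 hardly at all.

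The classes from outside the blood did not share 1 profile. Wwtr1 was highest in endothelial-like cells of vehicle, at 280 CPM [258, 303], ahead of perivascular-like cells at 150 CPM, fibroblast-like cells at 109 CPM, the Tm4sf1/Prl2c2 cluster at 85.8 CPM and the Dcn/Serpinb2 cluster at 58.8 CPM. Each of these steps lay outside the counting error. The Dcn/Serpinb2 cluster, the Ppy/Ghrl cluster (55.7 CPM) and epithelial-like cells (47.4 CPM) could not be ordered, and acinar-like cells stood lower, at 18 CPM.

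Yap1 was ordered differently. It was highest in the Ppy/Ghrl cluster, at 115 CPM. The vehicle cells of that cluster held 3975 CPM of epithelial and 33.9 CPM of endocrine markers, with a median of 2092 UMIs and 14.8% mitochondrial UMIs, so its leading genes do not describe them. The next levels, from 69.5 CPM in perivascular-like cells through 59.9 in epithelial-like, 50.8 in endothelial-like and 47.7 in fibroblast-like cells to 46 in the Tm4sf1/Prl2c2 cluster, did not differ from neighbour to neighbour. Acinar-like cells stood apart again, at 18 CPM.

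The share of Wwtr1 among the UMIs of both coactivators shows this without regard to depth. In vehicle it was 84.6% [81.8, 87.2] in endothelial-like cells (606 Wwtr1 and 110 Yap1 UMIs), 69.6% [64.4, 74.5] in fibroblast-like cells, 68.3% [64, 72.4] in perivascular-like cells and 44.2% [40.9, 47.5] in epithelial-like cells. Capture efficiency differs between genes, so the order of the classes can be read from these shares, and the balance of TAZ to YAP within a class cannot. Both endothelial clusters gave the same share: 84.6% in the Plvap/Cdh5 cluster and 84.8% [73.9, 92.5] in the Mmrn1/Ccl21a cluster, whose leading genes mark lymphatic vessels.

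Among epithelial clusters the share ranged more widely. The Spink4/Muc2 cluster, led by genes of mucus-secreting goblet cells, had 2 Wwtr1 and 32 Yap1 UMIs in its 117 vehicle cells, a share of 5.88% [0.72, 19.7], against 38.3% [32.9, 44] in the Dmbt1/Gkn3 cluster and 50.6% [46.3, 54.9] in the Krt7/Cldn4 cluster. Its Yap1 level, 40.3 CPM [27.6, 56.9], was within the range of the other non-blood classes, whereas its Wwtr1 level, 2.52 CPM [0.305, 9.11], was at that of blood-derived cells. The takinib library held 17 cells of this cluster, with 1 Wwtr1 and 2 Yap1 UMIs, too few to repeat the comparison.

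The TEAD genes were also ordered differently from one another. Tead1 ranged in vehicle from 36.8 CPM in acinar-like cells to 221 CPM in the Ppy/Ghrl cluster, with 161 in fibroblast-like, 158 in perivascular-like, 115 in endothelial-like and 89.8 in epithelial-like cells. Tead2 was highest in the Ppy/Ghrl cluster (121 CPM), the Tm4sf1/Prl2c2 cluster (66.8) and epithelial-like cells (65.3), and lowest of the non-blood classes in the Dcn/Serpinb2 cluster (6.68 CPM, 5 UMIs).

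Tead3 and Tead4 had opposite orders in fibroblast-like and endothelial-like cells. Tead3 had 27.6 CPM [21, 35.6] in fibroblast-like and 27 CPM in perivascular-like cells of vehicle, but 1.39 CPM [0.286, 4.05] in endothelial-like cells, from 3 UMIs. Tead4 had 15.2 CPM in endothelial-like cells and 0.468 CPM in fibroblast-like cells, from 1 UMI. In takinib the direction was the same: 10 Tead3 UMIs in fibroblast-like and 0 in endothelial-like cells, and 9 Tead4 UMIs in endothelial-like and 1 in fibroblast-like cells. As shares of all TEAD UMIs in vehicle, Tead4 made up 8.78% [6.12, 12.1] in endothelial-like and 0.213% [0.0054, 1.18] in fibroblast-like cells, and Tead3 made up 0.798% [0.165, 2.31] and 12.6% [9.72, 15.9].

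**Figure D2:**
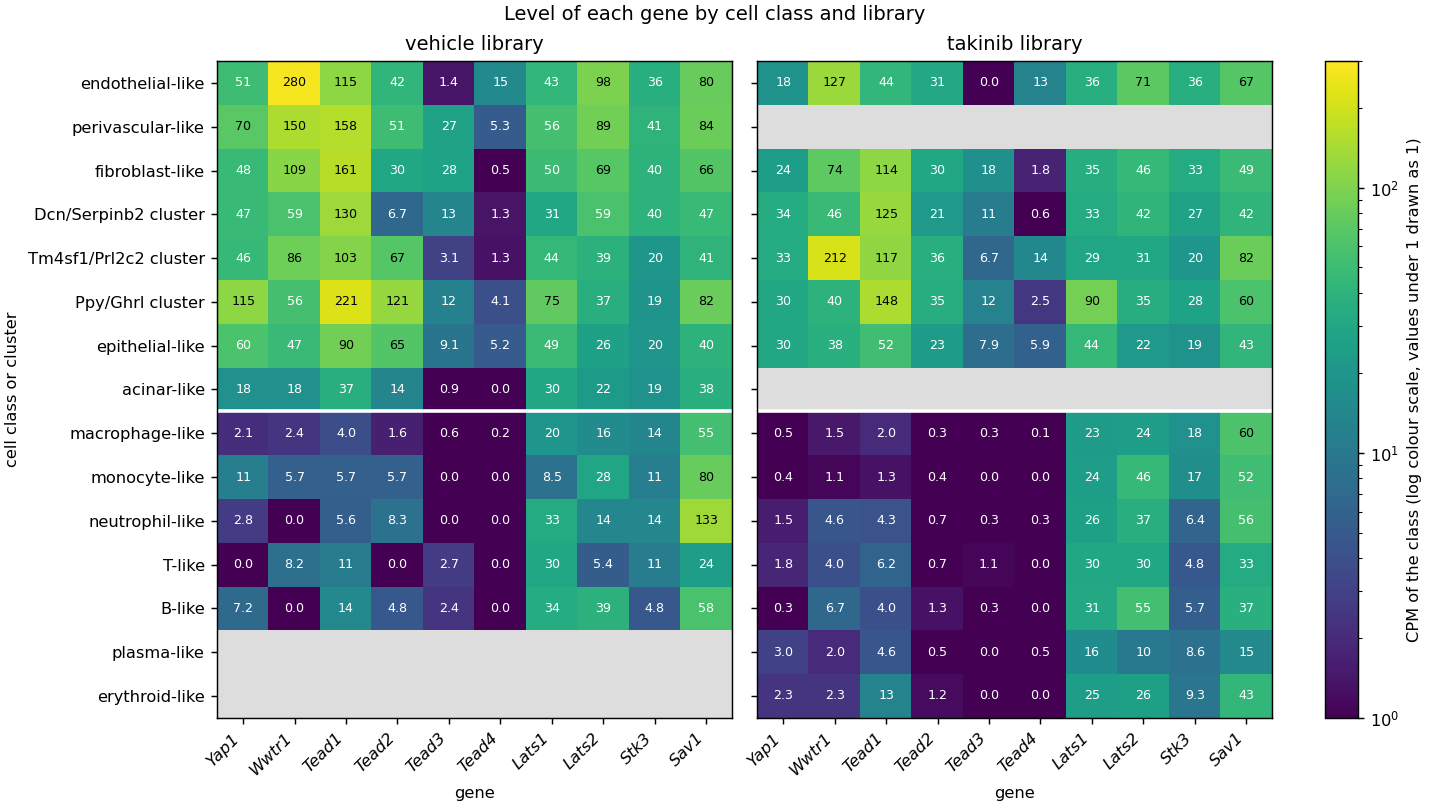
Level of each gene (columns) in each class or cluster of at least 50 cells (rows), in CPM on a log colour scale, for the vehicle library (left) and the takinib library (right), with grey for fewer cells and a white line between non-blood classes (above) and blood-derived classes (below). The first 6 columns are bright only above the line, Lats1, Lats2, Stk3 and Sav1 on both sides of it, and Wwtr1 reaches 280 CPM in endothelial-like cells of vehicle.

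The kinases and Sav1 had their own order. Lats2 was highest in endothelial-like (97.9 CPM) and perivascular-like cells (89.4 CPM) of vehicle, which did not differ from each other, and 26 CPM in epithelial-like cells. Stk3 was between 35.6 and 40.7 CPM in the endothelial-like, fibroblast-like and perivascular-like classes and the Dcn/Serpinb2 cluster, and 20.1 CPM in epithelial-like cells. Lats1 ranged from 30.5 to 74.7 CPM among the non-blood classes, and no neighbours in its order differed. Sav1 was highest in vehicle neutrophil-like cells, at 133 CPM [98.3, 177] from 48 UMIs in 269 cells whose median depth was 1216 UMIs.

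Genes of like pattern were sought over the 26 library-by-class sums of at least 50 cells, by Pearson's r of log2(CPM + 1). These points share libraries and depth. They also span blood-derived and non-blood classes, between whose pools the coactivators and TEAD genes differed at least 17.7-fold. The part of this split in r was not tested, and r is given as a description. The nearest gene to Wwtr1 was Tcaf1 (r = 0.974), and the nearest to Tead1 was Ptk7 (r = 0.967). Tead2 ranked second among all genes for Yap1 (r = 0.938) and Yap1 second for Tead2, whose nearest gene was Cdc42ep1 (r = 0.959), with the YAP target Ccn2 next after Yap1 (r = 0.934). Between members, r was 0.93 for Yap1 and Tead1 and 0.82 for Yap1 and Wwtr1, but 0.32 for Yap1 and Sav1 and 0.37 for Lats1 and Lats2.

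The comparison of treatments was made within classes that had at least 50 cells in each library. A gene was compared where equal levels would give at least 10 counts in each library, and a difference was counted when it passed 1.5-fold. Over all kept cells 6 of the 10 genes, the coactivators and the TEAD genes, were lower in takinib, where 34.7% of all genes compared were lower, and the non-blood classes were 41.7% of the vehicle cells and 9.28% of the takinib cells. In such a sum fewer cells of a type and less RNA per cell cannot be told apart.

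In epithelial-like cells (1190 in vehicle, 1656 in takinib) Yap1, Tead1 and Tead2 were lower with takinib while Wwtr1, the kinases and Sav1 kept within 1.5-fold. Tead2 had 545 UMIs, 65.3 CPM [59.9, 71], in vehicle and 458 UMIs, 23.2 CPM [21.2, 25.5], in takinib, a log2 ratio of -1.49 [-1.67, -1.31]. Yap1 had 59.9 CPM [54.7, 65.3] and 29.9 CPM [27.5, 32.4], a ratio of 0.499 (log2 interval [-1.18, -0.83]). Tead1 had 89.8 and 51.9 CPM, a log2 ratio of -0.79 [-0.93, -0.65]. The intervals of the 2 libraries did not overlap for any of these 3 genes. They cover counting error only, and the share of all genes without overlap was not counted.

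Wwtr1 stood at 47.4 and 37.7 CPM, a log2 ratio of -0.33 [-0.51, -0.15], so that its share of the coactivator UMIs was 44.2% in vehicle and 55.7% [53, 58.4] in takinib. Tead3 (-0.21), Tead4 (0.19), Lats1 (-0.14), Lats2 (-0.25), Stk3 (-0.12) and Sav1 (0.12) had log2 ratios closer to 0. Thus 3 of 10 genes were lower and 0 higher, where 21.4% of the 13515 genes compared in this class were lower and 13.0% higher. The share of members that were lower is near this background, and the median log2 ratio of the 10 genes, -0.23, is near the -0.14 of all genes. Within the TEAD family, Tead2 made up 38.5% [36, 41.1] of the UMIs in vehicle and 26.2% [24.1, 28.3] in takinib.

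Most epithelial-like cells of both libraries came from 2 clusters, the Krt7/Cldn4 cluster (556 and 628 cells), led by duct genes, and the Dmbt1/Gkn3 cluster (493 and 783 cells). The rest differed in mix, with 117 vehicle and 17 takinib cells of the Spink4/Muc2 cluster and 24 and 228 cells of the Gkn2/Gkn1 clusters. Tead2 was lower in both of the large clusters, at 109 and 38.1 CPM in the Krt7/Cldn4 cluster (log2 ratio -1.52 [-1.73, -1.31]) and at 32.1 and 12.5 CPM in the Dmbt1/Gkn3 cluster (-1.36 [-1.74, -0.98]). Yap1 was lower in each as well, with log2 ratios of -0.89 [-1.13, -0.65] and -1.15 [-1.42, -0.87]. Tead1 passed 1.5-fold in the first (128 and 59.8 CPM, -1.10) and not in the second (64.4 and 48.2 CPM, -0.42). In the Krt7/Cldn4 cluster 3 of 10 genes were lower and 1, Tead4, higher, where 22.0% of all genes compared were lower and 15.8% higher. The Tead4 ratio rested on 18 vehicle UMIs (0.69 [-0.08, 1.53]) and was 0.25 with 10 CPM added. In the Dmbt1/Gkn3 cluster 2 of 10 were lower, against 16.8% of all genes.

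**Figure D3:**
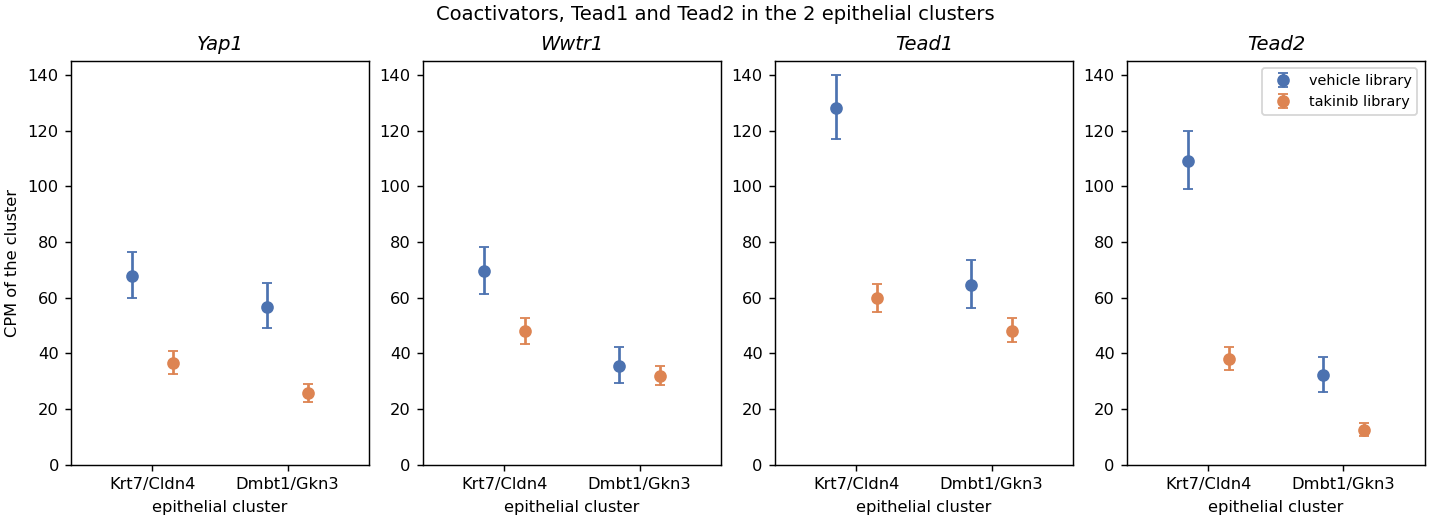
Levels of Yap1, Wwtr1, Tead1 and Tead2, in CPM with 95% Poisson intervals, in the Krt7/Cldn4 and Dmbt1/Gkn3 epithelial clusters of the vehicle and takinib libraries. Blue points are vehicle and orange points takinib: Tead2 stands at 109 and 38.1 CPM in the first cluster and at 32.1 and 12.5 CPM in the second, whereas Wwtr1 in the Dmbt1/Gkn3 cluster stands at 35.3 and 32 CPM.

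All 9 neutrophil markers were higher in takinib epithelial-like cells, 116 CPM summed in vehicle and 10698 CPM in takinib, with none of the 9 at 0 in either library. After removal of a takinib neutrophil profile, scaled by the S100a8 and S100a9 of the class, the log2 ratios were -0.90 for Yap1, -0.69 for Tead1 and -1.38 for Tead2. Against the 164 vehicle cells with Xist and no Y-linked UMIs, Tead2 had a log2 ratio of -1.84 and Yap1 of -0.98. Against the 552 vehicle cells with Y-linked and no Xist UMIs, a comparison chosen after seeing the data, the values were -1.52 and -1.14. With the Xist cells 5 of 8 genes were lower, Wwtr1 (-0.73 [-1.07, -0.36]) and Lats2 (-0.76) among them. The position of Wwtr1 within 1.5-fold thus depends on the vehicle cells used. The share of all genes that were lower against these cells was not counted.

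Other genes of the pathway were counted from a list of 35. In epithelial-like cells 7 of the 31 compared were lower and 1 higher, where 21.4% of all genes were lower and 13.0% higher, so the share of lower genes was near the background. The median log2 ratio was -0.32 beside -0.14 over all genes. The lowest was Amotl1 (91.4 and 43.9 CPM, log2 ratio -1.06 [-1.20, -0.91]), an angiomotin that holds YAP at cell junctions, and the highest was Tjp1 (110 and 167 CPM, 0.60 [0.50, 0.71]), the tight-junction protein ZO-1. Of the kinase module, Map4k4, which can act on LATS beside the MST kinases, had 228 and 128 CPM (-0.84). Stk4, the other MST kinase, had 40.8 and 46.3 CPM (0.18 [-0.00, 0.36]).

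Of 20 YAP/TAZ target genes 19 were compared, 7 were lower and 1 was higher, with a median log2 ratio of -0.51, where 21.4% of all genes were lower and 13.0% higher with a median of -0.14. Ccn1, a secreted matrix protein and a standard YAP target, had 85.4 and 32.8 CPM (-1.38 [-1.54, -1.23]), and Ankrd1, a nuclear ankyrin-repeat protein, had 61.8 and 31.1 CPM (-0.99). Ccn2, the secreted growth factor also called CTGF, had 356 and 241 CPM (-0.56). Nt5e (CD73) was the lowest, at 150 and 33.5 CPM (-2.16), and F3, the tissue factor gene, the one that was higher, at 71 and 155 CPM (1.13 [1.00, 1.26]). The counts differed between the clusters: 11 of 19 targets were lower and 3 higher in the Krt7/Cldn4 cluster, with a median of -0.67, against 22.0% and 15.8% of all genes. In the Dmbt1/Gkn3 cluster 1 of 18 was lower and 4 higher, with a median of -0.11, against 16.8% and 14.2%, although Yap1 and Tead2 were lower in both. This difference between the clusters was not tested.

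In endothelial-like cells (718 in vehicle, 103 in takinib) both coactivators and Tead1 were lower with takinib. Wwtr1 had 606 UMIs, 280 CPM [258, 303], in vehicle and 89 UMIs, 127 CPM [102, 156], in takinib, a log2 ratio of -1.14 [-1.48, -0.82]. Tead1 had 115 and 44.1 CPM (-1.38 [-1.96, -0.83]), and Yap1 50.8 and 18.5 CPM (-1.46 [-2.41, -0.62]). The other genes compared, Tead2, Tead4, Lats1, Lats2, Stk3 and Sav1, had log2 ratios between -0.46 and 0.00. Thus 3 of 9 genes were lower, where 25.6% of all genes compared in this class were lower.

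The share of Wwtr1 among coactivator UMIs was 84.6% [81.8, 87.2] and 87.3% [79.2, 93], and the intervals overlapped. In the Plvap/Cdh5 cluster alone (631 and 70 cells) Wwtr1 (301 and 139 CPM, -1.11), Yap1 (-1.41) and Tead1 (-1.49) were lower, against 27.3% of all genes. The vehicle cells held 7662 CPM of endothelial markers and the takinib cells 5383 CPM, and the 9 neutrophil markers came to 470 and 26166 CPM. After subtraction of the neutrophil profile the Wwtr1 log2 ratio was -0.87. Against the 69 vehicle cells with Xist and no Y-linked UMIs it was -0.95 [-1.49, -0.37], while those of Yap1 (-0.68 [-2.26, 1.16]) and Tead1 (-0.81 [-1.79, 0.25]) had intervals that include 0. Of 15 targets compared 4 were lower and 2 higher, with a median of -0.01, from Axl (50.8 and 14.2 CPM, -1.84) to Gadd45a (29.1 and 72.6 CPM, 1.32). Of the other Hippo genes 15 of 28 were lower and 0 higher, where 25.6% of all genes in this class were lower and 11.3% higher, the lowest being Ajuba, a LIM protein that inhibits LATS (20.3 and 7.12 CPM, -1.51).

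In fibroblast-like cells (553 in vehicle, 103 in takinib) 3 of 9 genes were lower, where 21.9% of all genes compared were lower. Of these 3, Yap1 (47.7 and 24.5 CPM, log2 ratio -0.96 [-1.88, -0.15]) had an interval below 0, whereas those of Tead3 (-0.66 [-1.79, 0.32]) and Lats2 (-0.59 [-1.26, 0.01]) included it. Wwtr1 had 109 and 73.6 CPM (-0.57 [-1.08, -0.09]) and Tead1 161 and 114 CPM (-0.50 [-0.90, -0.11]), just inside 1.5-fold. Tead2, the gene with the lowest ratio in epithelial-like cells, had 30.4 and 29.8 CPM (-0.03 [-0.89, 0.76]). The 9 neutrophil markers summed to 217 CPM in the vehicle and 11770 CPM in the takinib cells of this class. The count of 3 was 1 under 4 other settings, among them subtraction of the neutrophil profile, and 0 when cells were thinned to 1000 UMIs. In the Igfbp3/Col12a1 cluster, which held 439 and 56 of these cells, Yap1, Lats2 and Stk3 were lower, against 21.7% of all genes. They rested on 4, 9 and 7 takinib UMIs. The log2 ratios were -1.64 [-3.55, -0.23], -0.97 [-2.13, -0.00] and -0.66 [-2.02, 0.45]. In this cluster fibroblast markers came to 38296 and 19924 CPM and neutrophil markers to 204 and 15929 CPM. Of 16 targets compared 7 were lower and 1 higher, against 21.9% and 10.8% of all genes in fibroblast-like cells. Their median was -0.35 beside -0.12 over all genes. They ran from Ccn2 (615 and 244 CPM, -1.34 [-1.60, -1.08]) to F3 (19.6 and 85.9 CPM, 2.13).

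**Figure D4:**
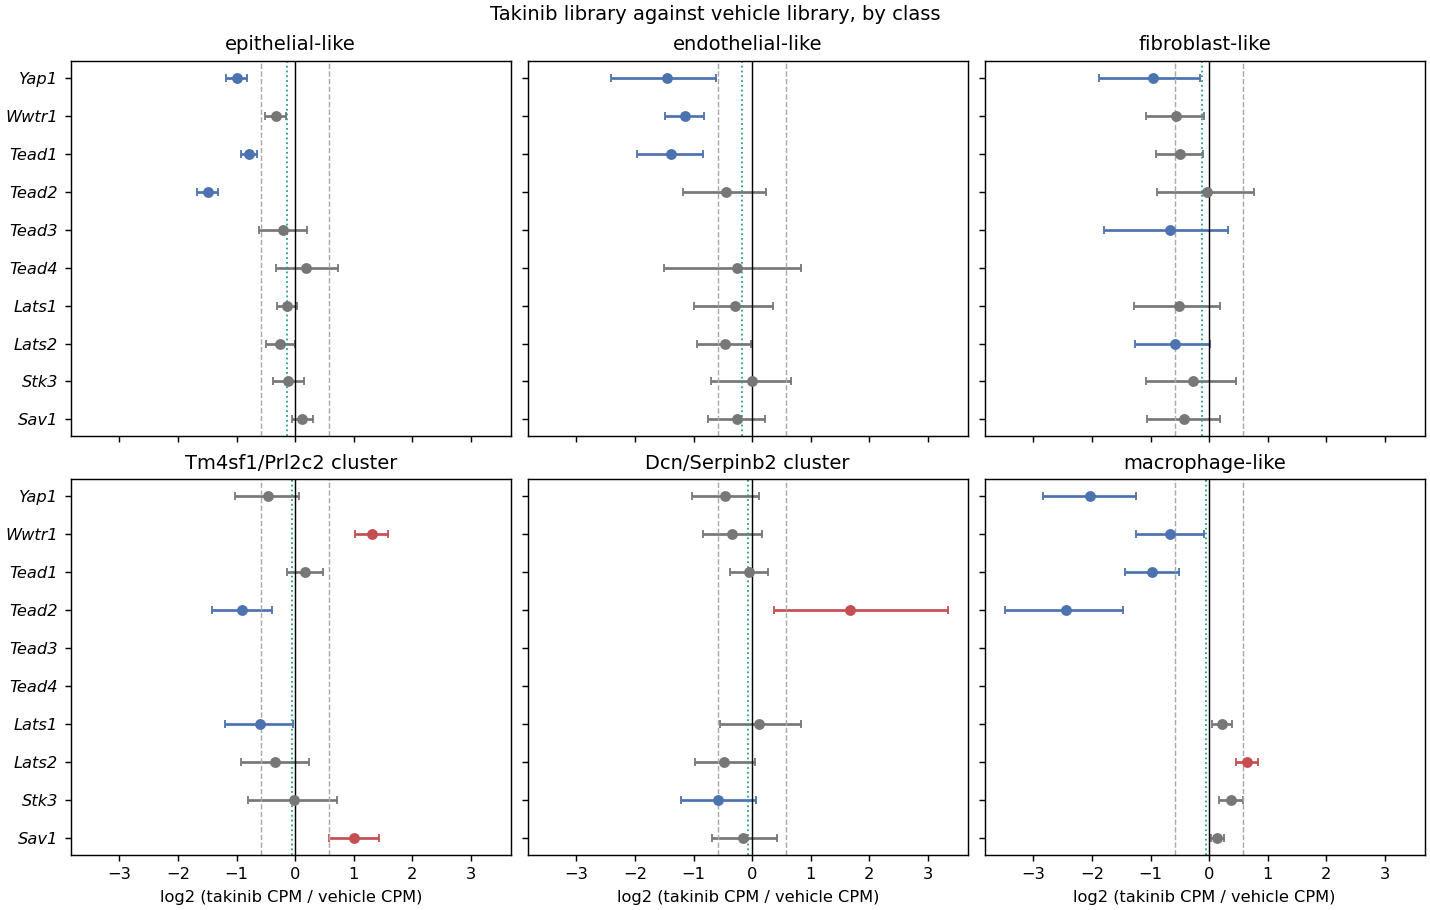
Log2 ratio of takinib to vehicle level for each gene compared, with exact 95% intervals, in 4 classes and 2 unnamed clusters. Blue and red points are past 1.5-fold (dashed lines) downward and upward, grey points within it, the dotted line is the median of all genes compared, and a gene with no point had too few counts. Yap1 is left of 0 in all 6 panels, with intervals that include 0 in the 2 unnamed clusters and levels read as background in macrophage-like cells. Wwtr1 stands at -1.14 in endothelial-like cells and at 1.31 in the Tm4sf1/Prl2c2 cluster.

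The Tm4sf1/Prl2c2 cluster (192 and 78 cells) had more Wwtr1 with takinib. Its Cdkn2a level, 1322 CPM in vehicle and 1666 CPM in takinib, was above the 612 and 383 CPM of epithelial-like cells, and its Epcam level, 94.6 and 48.3 CPM, was below their 1582 and 1804 CPM. Wwtr1 had 194 UMIs, 85.8 CPM, in vehicle and 255 UMIs, 212 CPM, in takinib, a log2 ratio of 1.31 [1.03, 1.59]. Sav1 was higher too, at 41.1 and 82.5 CPM (1.00 [0.58, 1.43]).

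Yap1 (46 and 33.3 CPM, -0.46 [-1.03, 0.07]) and Tead1 (103 and 117 CPM, 0.17) lay within 1.5-fold, and Tead2 was lower, at 66.8 and 35.8 CPM (-0.90 [-1.42, -0.40]). The share of Wwtr1 in the coactivator UMIs was thus 65.1% [59.4, 70.5] in vehicle and 86.4% [82, 90.1] in takinib, as high as in endothelial-like cells. Tead4 had 3 UMIs in vehicle and 17 in takinib, 0.759% [0.157, 2.2] and 8.17% [4.83, 12.8] of the TEAD UMIs. In all 2 of 8 genes compared were higher and 2 lower, where 15.4% of all genes compared were higher and 21.6% lower. The other lower gene was Lats1 (44.2 and 29.2 CPM, -0.60 [-1.20, -0.03]), which stayed past 1.5-fold in 3 of 8 other settings.

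The cells of this cluster differed between the libraries in their other markers as well. Its 10 epithelial markers came to 4026 CPM with vehicle against 1412 CPM with takinib. Fibroblast markers, also 10, came to 65.4 and 1104 CPM. The part of this in the Wwtr1 difference was not tested. Subtracting the neutrophil profile gave a Wwtr1 log2 ratio of 1.38, and thinning every cell to 1000 UMIs gave 0.62 [-0.68, 1.85]. Against the vehicle cells with Y-linked and no Xist UMIs, a comparison chosen after seeing the data, it was 1.20.

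In the Dcn/Serpinb2 cluster (139 and 250 cells) Yap1, Wwtr1 and Tead1 lay within 1.5-fold, with log2 ratios of -0.47, -0.35 and -0.05. Tead2 was higher, from 5 UMIs, 6.68 CPM, in vehicle to 68 UMIs, 21.3 CPM, in takinib (1.67 [0.38, 3.34]), opposite to its direction in epithelial-like cells. Markers of other cells differed in this cluster too: macrophage markers came to 5265 and 1636 CPM, mesothelial markers to 867 and 312, epithelial markers to 826 and 448 and neutrophil markers to 290 and 11638. The Tead2 log2 ratio was 1.79 after subtraction of the neutrophil profile and 0.74 in thinned cells, with an interval that includes 0, and the part of the other markers was not tested. Here 1 of 8 genes was higher and 1 lower, against 16.3% and 21.0% of all genes. The lower gene was Stk3 (40.1 and 26.6 CPM), whose interval included 0 (-0.59 [-1.21, 0.06]). It stayed past 1.5-fold in 4 of 8 other settings. In the Ppy/Ghrl cluster (310 and 109 cells) 2 of 7 genes compared were lower and 0 higher, against 28.2% and 20% of all genes. The lower genes were Yap1 (115 and 30.1 CPM, -1.94 [-2.95, -1.06]) and Tead2 (121 and 35.1 CPM, -1.78 [-2.71, -0.96]). These ratios do not compare like cells, because its vehicle cells held 33.9 CPM of endocrine markers and its takinib cells 16968 CPM. This cluster was left out of the other settings.

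**Figure D5:**
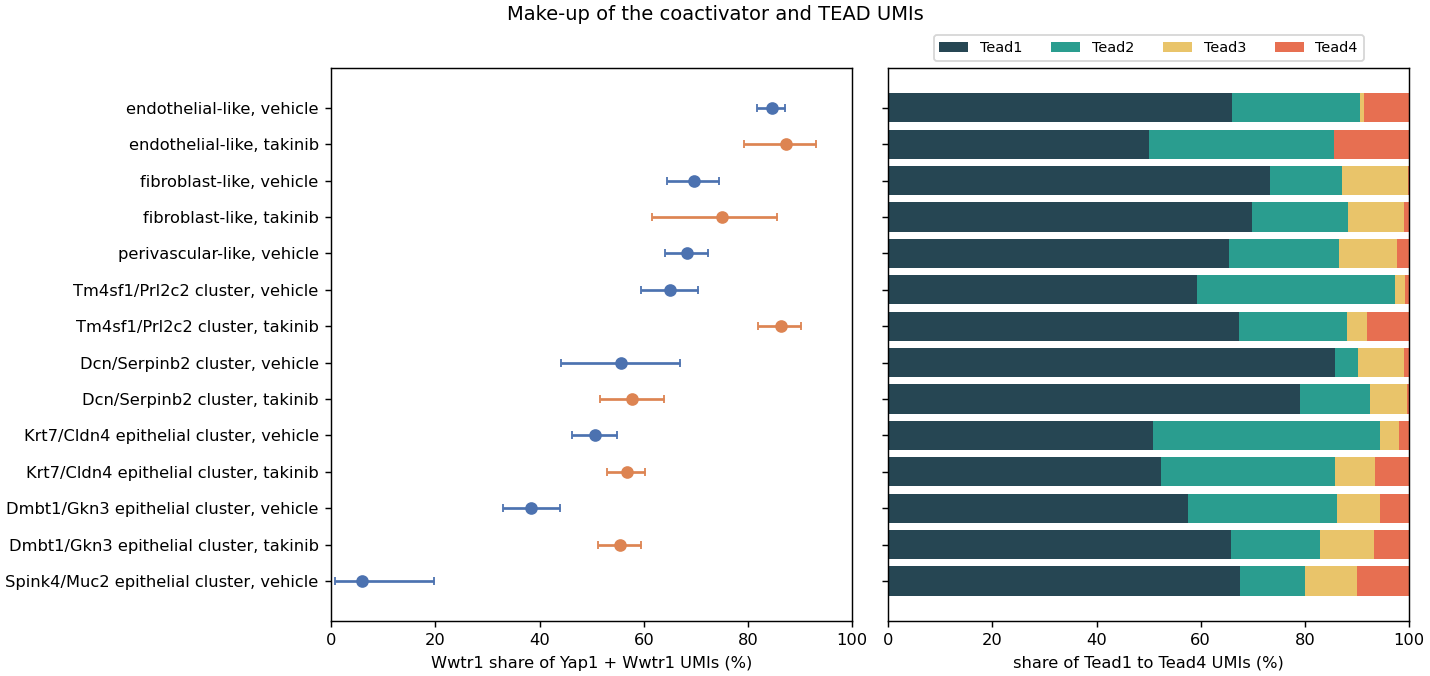
Left, share of Wwtr1 among Yap1 and Wwtr1 UMIs (percent, with exact 95% intervals; blue for vehicle, orange for takinib), by class or cluster. Right, shares of Tead1 to Tead4 among all TEAD UMIs. The left share runs from 5.88% in the Spink4/Muc2 cluster to 87.3% in endothelial-like cells of takinib, and the Tead2 bar covers 43.5% in vehicle and 33.4% in takinib in the Krt7/Cldn4 cluster.

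Among blood-derived classes Lats2 was higher with takinib in several, from vehicle levels that in macrophage-like, neutrophil-like and T-like cells lay below the 33.7 CPM of Lats2 in empty droplets. No such droplets were among the takinib barcodes, so the part of free RNA in these differences was not tested. In macrophage-like cells (4575 and 6101 cells) it had 313 UMIs, 15.6 CPM [14, 17.5], in vehicle and 1043 UMIs, 24.4 CPM [23, 25.9], in takinib, a log2 ratio of 0.64 [0.46, 0.83]. Lats1 (0.22), Stk3 (0.37) and Sav1 (0.14) lay within 1.5-fold. Most vehicle macrophages belonged to the H2-Ab1/H2-Eb1 cluster (2426 and 188 cells), which had 17 and 15.6 CPM of Lats2 (-0.13 [-0.97, 0.61]). The Ltc4s/Ear2 cluster, with 1517 and 1501 cells, had 12.3 and 18.8 CPM (0.62 [0.23, 1.01]). With equal weight for each cluster held by both libraries the log2 ratio of the class was 0.24, within 1.5-fold.

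Lats2 was also higher in neutrophil-like cells (5 UMIs, 13.9 CPM, and 1071 UMIs, 36.6 CPM, 1.40 [0.17, 3.02]) and in T-like cells (2 UMIs, 5.43 CPM, and 83 UMIs, 30.5 CPM, 2.49 [0.59, 5.56]). In monocyte-like cells Lats2 was past 1.5-fold upward and Sav1 downward (-0.60 [-1.17, 0.02]), where 22.9% of all genes compared were higher and 8.39% lower. In B-like cells Sav1 was lower (-0.64 [-1.28, 0.06]), against 18.8% of all genes. For Lats2 in monocyte-like (0.68 [-0.23, 1.76]) and B-like cells (0.50 [-0.25, 1.34]) the intervals included 0. Higher calls were 13.0% of all genes compared in macrophage-like, 19.9% in neutrophil-like and 17.6% in T-like cells. Neutrophil markers were higher in the takinib T-like cells, 780 and 21303 CPM summed, and with the neutrophil profile subtracted the Lats2 log2 ratio was 2.44 there and 0.60 in macrophage-like cells.

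In the same macrophages Yap1 (2.1 and 0.515 CPM), Wwtr1 (2.35 and 1.47), Tead1 (3.95 and 2.01) and Tead2 (1.65 and 0.304) made up the 4 of 8 genes that were lower, against 16.4% of all genes. These are the levels read above as background. In the same cells the epithelial markers summed to 166 and 80.4 CPM and the endothelial markers to 25.6 and 11 CPM, and their part in the result was not tested.

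Sav1 was lower in neutrophil-like cells of takinib, at 133 CPM [98.3, 177] and 56 CPM [53.4, 58.8], a log2 ratio of -1.25 [-1.66, -0.81], where 34.0% of all genes compared were lower. The vehicle neutrophils came nearly all from 1 cluster, led by Cxcr2 and G0s2 (256 of 269 cells), and within this cluster Sav1 stood at 139 and 60.9 CPM (-1.19 [-1.65, -0.71]). With each library clustered on its own the log2 ratio was -0.57. Sav1 was thus lower in neutrophil-like cells, higher in the Tm4sf1/Prl2c2 cluster and within 1.5-fold in epithelial-like, endothelial-like, fibroblast-like and macrophage-like cells.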

How the data were processed

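Single cells of 2 tumour libraries were analysed from deposited raw UMI counts per gene and barcode, made with Cell Ranger 4 for vehicle and 6.1.1 for takinib, per the file headers. The submitters' processing notes name Cell Ranger 2.1.1, STAR 2.0.4b, featureCounts 1.45 and mm10. The lowest deposited barcode had 500 UMIs in takinib and 0 in vehicle.

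Cells with at least 1000 UMIs, 500 genes and at most 20% mitochondrial UMIs were kept. Scrublet marked 3.18% of vehicle cells as doublets (314 removed). In takinib its threshold marked 0.00373%, so its top 6% by score (1607 cells) were taken out. Both libraries were clustered together (scanpy 1.11.5, 2000 variable genes, 30 components, 15 neighbours, Leiden in igraph 0.11.9, resolution 1). A cluster was named from markers when at least 3 were detected, no unrelated class reached 0.75 of its score and its leading genes did not mark another class. Markers of granule precursors and enterocytes were added to that last step after seeing the data.

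UMIs were summed per class and library, and the interval scripts were checked on simulated data. The 10 genes and the lists of other genes were chosen with earlier results of these data known. All 10 genes are named. From the lists, genes with the highest or lowest ratio of a class were named by rule. Amotl1, Tjp1, Ajuba, Nt5e, F3, Axl, Gadd45a and, in fibroblast-like cells, Ccn2 came from that rule, while Map4k4, Stk4, Ccn1, Ankrd1 and, in epithelial-like cells, Ccn2 were singled out after their values were seen.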

Additional observations from a re-analysis of the deposited data

Results flagged for a closer look

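Wwtr1, Tead2 and Sav1 stood past 1.5-fold in opposite directions in different groups of cells, with intervals that exclude 0 on both sides. The difference between the groups was not tested in any case, since each treatment has 1 library. For Wwtr1 the log2 ratio of takinib to vehicle was -1.14 in endothelial-like and -0.67 in macrophage-like cells, the latter at background level, and 1.31 in the Tm4sf1/Prl2c2 cluster. Tead2 had -1.49 in epithelial-like cells, -0.90 in the Tm4sf1/Prl2c2 cluster and -2.44 in macrophage-like cells, the last also at background level. It had 1.67 in the Dcn/Serpinb2 cluster, where vehicle had 5 UMIs. The Ppy/Ghrl cluster was left out of this search. Sav1 had -1.25 in neutrophil-like cells and 1.00 in the Tm4sf1/Prl2c2 cluster.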

How the results depend on the processing

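The 10 genes were compared under 13 other settings, 1 of them chosen after seeing the data (vehicle cells with Y-linked and no Xist UMIs). Of 873 log2 ratios 800 stayed within their error, 69 moved and 4 reversed. Only ratios past 1.5-fold as reported were counted as reversed when their sign changed; a further 59, all of ratios within 1.5-fold, changed sign, such as Yap1 in the Dcn/Serpinb2 cluster (-0.47, and 0.96 when thinned). The reversed ones were Tead3 in fibroblast-like cells thinned to 1000 UMIs (0.92), Wwtr1 in macrophage-like cells against vehicle cells with Xist and no Y-linked UMIs (0.87), and, with clusters named by score alone, Lats2 (-0.04) and Sav1 (0.14) in monocyte-like cells. The cause was not tested.

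For the other settings the share of all genes past 1.5-fold was not counted, so the counts of members under them have no background. In epithelial-like cells the Xist vehicle cells gave a median of -0.74 with 5 genes lower. In endothelial-like cells they gave 1 lower, thinning gave a median of -1.22, and no minimum of expected counts gave 1 higher. In fibroblast-like cells 1 gene was lower with 10 CPM added, at most 10% mitochondrial UMIs, the median gene ratio set to 0 or the neutrophil profile subtracted, 0 were lower when thinned, and 1 was higher with no minimum. In macrophage-like cells the median was 0.16 at 10% mitochondrial UMIs, 0.20 thinned, 0.11 with each library clustered on its own, 0.45 with the Xist cells, -0.82 with no minimum and 0.21 with the Y-linked cells. There 0 genes were lower with 10 CPM added or the Xist cells, 1 when thinned, and 2 at 10% mitochondrial UMIs or with the Y-linked cells. None (0) was higher with 10 CPM added, thinning, separate clustering or equal weight per cluster, and 2 were with the Xist cells.

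One library per group limits every comparison, and the libraries also differ in sex of the cells, mitochondrial share and neutrophil RNA. Classes of about 100 takinib cells rest on few counts. No paired analysis was possible because each group has 1 library.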
